A study of Mus musculus with 23 samples.

Results

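A stretch of chromosome 2 that holds Rxra and Col5a1, mm9 chr2:27500000-27900000, was followed through 16 lists of enriched regions from 4 subregions of the adult mouse cortex. Its members were the regions of those lists that overlapped the stretch (called the window) by at least 1 bp. There were 149 of them among 527177 regions in all lists, 94 of 334051 in the 8 full lists and 55 of 193126 in the 8 enhancer lists, which are subsets of the full ones. The window was selected on counts of H3K27ac and H3K4me2 regions in these same lists, so the counts in it are a description and carry no test.

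The study mapped 2 histone marks by chromatin immunoprecipitation and sequencing to find enhancers that differ between closely related cortical subregions. The tissue was the anterior cingulate (ACC) and retrosplenial (RSC) cortex, which are midline areas, and the lateral (LEC) and medial (MEC) divisions of the entorhinal cortex, dissected from both hemispheres of C57BL6J mice at postnatal day 56. The labels describe 2 libraries per group for every mark and for input, with a single exception, the 1 library of MEC H3K4me2. Each subregion and mark has 1 full and 1 enhancer list for all its libraries, with no value for a single library. No spread over animals can therefore be given, and no difference below was tested. Tissue blocks mix neurons, glia and vessel cells, and the lists do not tell fewer cells of a type from less mark per cell. They hold no expression, so cell type markers could not be checked.

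H3K27ac, acetylation of lysine 27 of histone H3, lies at active enhancers and promoters. H3K4me2, dimethylation of lysine 4, lies at active and at poised enhancers and promoters. Rxra encodes the retinoid X receptor alpha, a nuclear receptor that binds DNA as the common partner of the retinoic acid, thyroid hormone, vitamin D and other receptors. Col5a1 encodes the alpha chain of type V collagen that starts fibril assembly in the extracellular matrix, and in the brain it is known as a product of meningeal fibroblasts. In a gene table of another build, GRCm38.p6, Col5a1 is the next protein-coding gene after Rxra, with Wdr5 before the pair and Fcnb after it. The gene spans used here, about 27.53 to 27.62 Mb for Rxra and 27.74 to 27.90 Mb for Col5a1, are approximate, and no mm9 annotation was used, so exons and introns are not given.

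The promoters are shown because both genes are named from regions at the start of their spans. RefSeq promoters matched both symbols, with 2 starts for Rxra and 1 for Col5a1, each from 250 bases before to 50 after the start, all on the plus strand of chromosome 2 in GRCm38.p6. These positions belong to another build than the lists and were not converted. Capitals mark the GC box GGGCGG, bound by Sp-family factors, and AGGTCA, the hexamer recognised by the retinoid X receptor and its partners, each on either strand. The motifs share no bases here, and a match is a description of the letters, not a binding site.
Rxra, first start, chr2:27676951-27677250: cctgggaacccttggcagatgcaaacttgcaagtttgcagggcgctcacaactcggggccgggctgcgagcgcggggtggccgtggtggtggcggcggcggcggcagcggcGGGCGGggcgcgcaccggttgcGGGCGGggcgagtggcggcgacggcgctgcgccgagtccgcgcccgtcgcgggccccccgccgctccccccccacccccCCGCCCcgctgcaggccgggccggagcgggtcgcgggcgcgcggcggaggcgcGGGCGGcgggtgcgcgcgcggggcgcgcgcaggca
Rxra, second start, chr2:27709042-27709341: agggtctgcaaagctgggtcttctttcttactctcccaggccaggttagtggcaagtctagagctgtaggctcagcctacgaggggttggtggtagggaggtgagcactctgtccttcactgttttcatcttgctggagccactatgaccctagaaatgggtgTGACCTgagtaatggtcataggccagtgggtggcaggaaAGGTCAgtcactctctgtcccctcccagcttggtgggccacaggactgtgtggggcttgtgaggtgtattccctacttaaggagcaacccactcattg
Col5a1, chr2:27886175-27886474: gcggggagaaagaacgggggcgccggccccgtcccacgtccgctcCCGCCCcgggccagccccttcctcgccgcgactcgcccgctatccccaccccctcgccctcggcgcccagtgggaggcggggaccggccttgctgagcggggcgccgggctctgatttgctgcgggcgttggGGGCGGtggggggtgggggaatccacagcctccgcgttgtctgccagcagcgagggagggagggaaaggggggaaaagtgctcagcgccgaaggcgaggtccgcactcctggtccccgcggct
The first Rxra promoter had 83.0% G and C with 55 CpG dinucleotides and 4 GC boxes, and the Col5a1 promoter 75.0% with 34 CpG and 2 GC boxes. The second Rxra promoter had 54.3% G and C, 1 CpG, no GC box and 2 copies of AGGTCA. Over all 32851 promoters of the table, the medians were 52.7% G and C and 7 CpG, 35.7% held a GC box and 16.3% held AGGTCA. The first Rxra and the Col5a1 promoters were thus far richer in CpG than the median promoter, and the second Rxra promoter was poorer.

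Both genes were named from regions of the full lists that are missing from the enhancer lists (called excluded regions; why they were removed is not stated in the sources used here). Excluded regions are not limited to gene starts. All 8 full lists also had one inside the Rxra span, within chr2:27593976-27603800. At the start of the Rxra span (called the Rxra start) every subregion had such a region in each mark. No RefSeq start of Rxra or Col5a1 was placed in mm9, so each name rests on excluded regions near the start of an approximate span. The H3K27ac region at the Rxra start spanned chr2:27531501-27538275 in ACC, chr2:27531351-27538075 in LEC, chr2:27531626-27535750 in RSC and, at its narrowest, chr2:27531951-27533725 in MEC. The same stretch of 1775 bp was common to all 8 lists. The ACC and LEC regions were the widest, at 6775 and 6725 bp, against 4125 bp in RSC and 1775 bp in MEC. H3K4me2 had the same order, at 7925 bp in ACC, 6925 bp in LEC, 5425 bp in RSC, and 2750 bp for MEC.

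At the Col5a1 start each mark was listed in 3 of the 4 subregions, but not in the same 3. H3K27ac was at chr2:27740826-27745500 in ACC, chr2:27740726-27742525 in RSC and chr2:27740851-27742975 in LEC, with none in MEC. H3K4me2 was at chr2:27740701-27745525 in ACC, chr2:27740751-27745825 in RSC and chr2:27741201-27742800 in MEC, with none in LEC. ACC and RSC thus carried both marks there, LEC was listed for H3K27ac alone and MEC for H3K4me2 alone. The depth behind the lists is unknown, so a missing region does not show that the mark is absent.

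**Figure D1:**
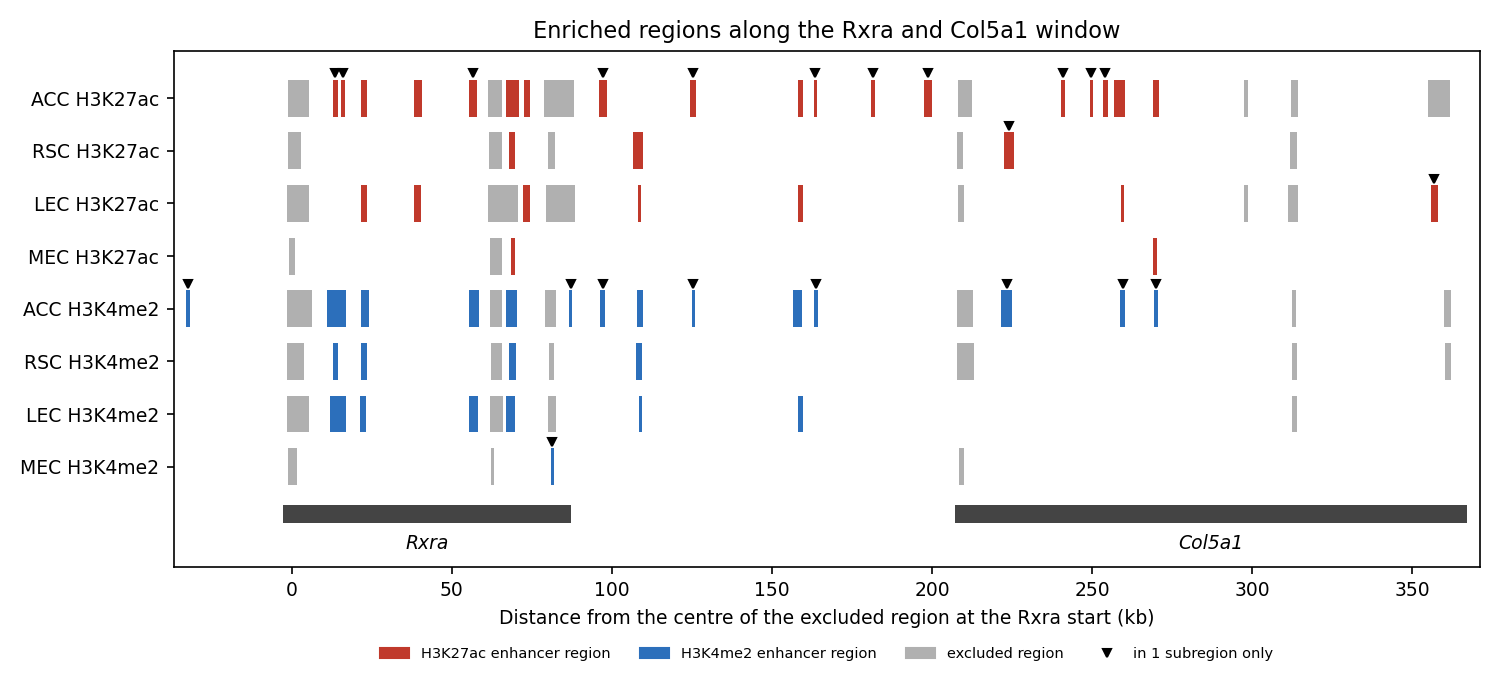
Regions of the 8 full lists along the window, 1 row per subregion and mark, against distance in kb from the centre of the excluded region at the Rxra start. Coloured bars are enhancer regions, grey bars excluded regions, triangles enhancer regions found in 1 subregion only, and black bars the approximate gene spans; 11 triangles lie over ACC H3K27ac and 8 over ACC H3K4me2.

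ACC had the most enhancer regions in the window for both marks. For H3K27ac ACC had 18, LEC 7, RSC 3 and MEC 2. For H3K4me2 ACC had 14, LEC 6, RSC 4 and MEC 1. The order of the subregions was the same for both marks.

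ACC also led relative to the length of its lists. Of every 10000 regions of the H3K27ac enhancer list, the window held 6.45 for ACC, 3.05 for LEC, 1.83 for MEC and 1.24 for RSC. Of every 10000 H3K4me2 enhancer regions it held 4.10 for ACC, 2.06 for LEC, 1.39 for RSC and 0.665 for MEC. The lead stayed when regions under 1000 bp were left out, with 16 H3K27ac regions in ACC and 6 in LEC. It shrank when each list was reduced to its widest regions, as many as the shortest list of the mark holds, which changes width and list length together. ACC then had a count of 4 H3K27ac regions, RSC 2, MEC 2 and LEC 0. For H3K4me2 ACC then had 7, RSC 4, LEC 4 and MEC 1.

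The covered bases followed the counts. H3K27ac enhancer regions of ACC covered 34.2 kb, those of LEC 11.7 kb, those of RSC 8.15 kb and those of MEC 2.52 kb. H3K4me2 enhancer regions of ACC covered 31.9 kb, those of LEC 15.0 kb, those of RSC 7.45 kb and those of MEC 0.875 kb. In the full lists, which include the gene starts, H3K27ac covered 69.7 kb for ACC and 43.6 kb for LEC, where RSC had 22.5 kb and MEC 7.92 kb. In the Rxra span the full H3K27ac lists of ACC and LEC were closer, at 35.5 and 31.4 kb. The enhancer lists there covered 15.1 kb for ACC and 5.90 kb for LEC.

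ACC enhancer regions in the window were narrower than usual for H3K27ac, with a median of 1738 bp in the window and 2075 bp over the whole list. Their widths ran over a range of 700 to 4100 bp. This was not particular to ACC. The H3K27ac medians in the window and over the list were 1675 and 2200 bp for LEC and 1262 and 2100 bp for MEC. RSC went the other way, with 2850 and 2075 bp. The widest H3K27ac enhancer region of ACC had 4100 bp, that of RSC 3150 bp, that of LEC 2200 bp and that of MEC 1425 bp. For H3K4me2 the median of ACC was 1712 bp in the window and 1600 bp over the whole list. Its widest region, chr2:27543676-27549675, measured 6000 bp and lay after the Rxra start, where LEC had its own widest, of 5000 bp. The widest H3K4me2 enhancer region of RSC had 2025 bp and that of MEC 875 bp.

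**Figure D2:**
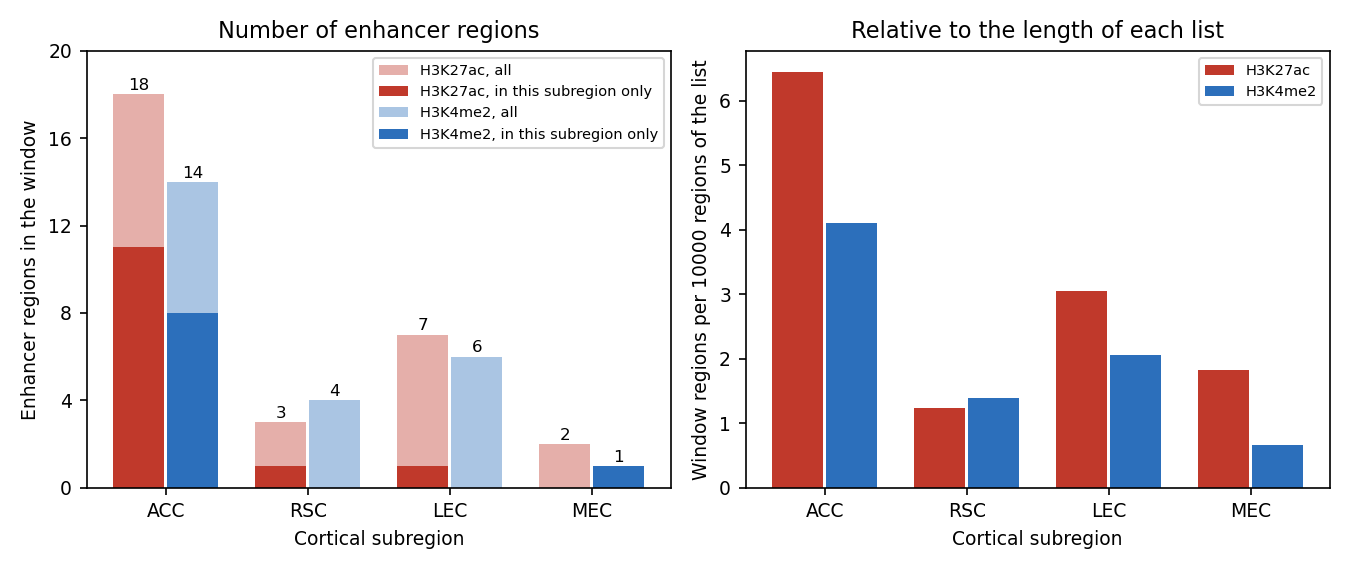
Left, enhancer regions in the window by subregion and mark, with those found in that subregion only in the dark part of each bar. Right, window regions per 10000 regions of the same list; ACC is highest in both, with 18 H3K27ac regions or 6.45 per 10000.

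Set among 5722 windows of 400 kb along the genome, the ACC count was high and the others were not. All shares are of these windows, not of every possible 400 kb window. At least 18 ACC H3K27ac enhancer regions were found in 154 windows (2.69%), where the median window had 3. At least 7 LEC regions were found in 23.3% of windows, at least 3 RSC regions in 53.7% and at least 2 MEC regions in 38.9%. For H3K4me2, at least 14 ACC regions were found in 11.5% of windows, at least 6 LEC regions in 36.6%, at least 4 RSC regions in 52.3% and at least 1 MEC region in 82.7%.

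The gap between ACC and the next subregion was wider than in most windows. ACC led the next subregion by 11 H3K27ac regions, a lead reached in 3 of the 5722 windows (0.0524%). Its lead of 8 H3K4me2 regions was reached in 33 windows (0.577%). Since the window was chosen with such counts known, these shares place it among others and are no test.

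**Figure D3:**
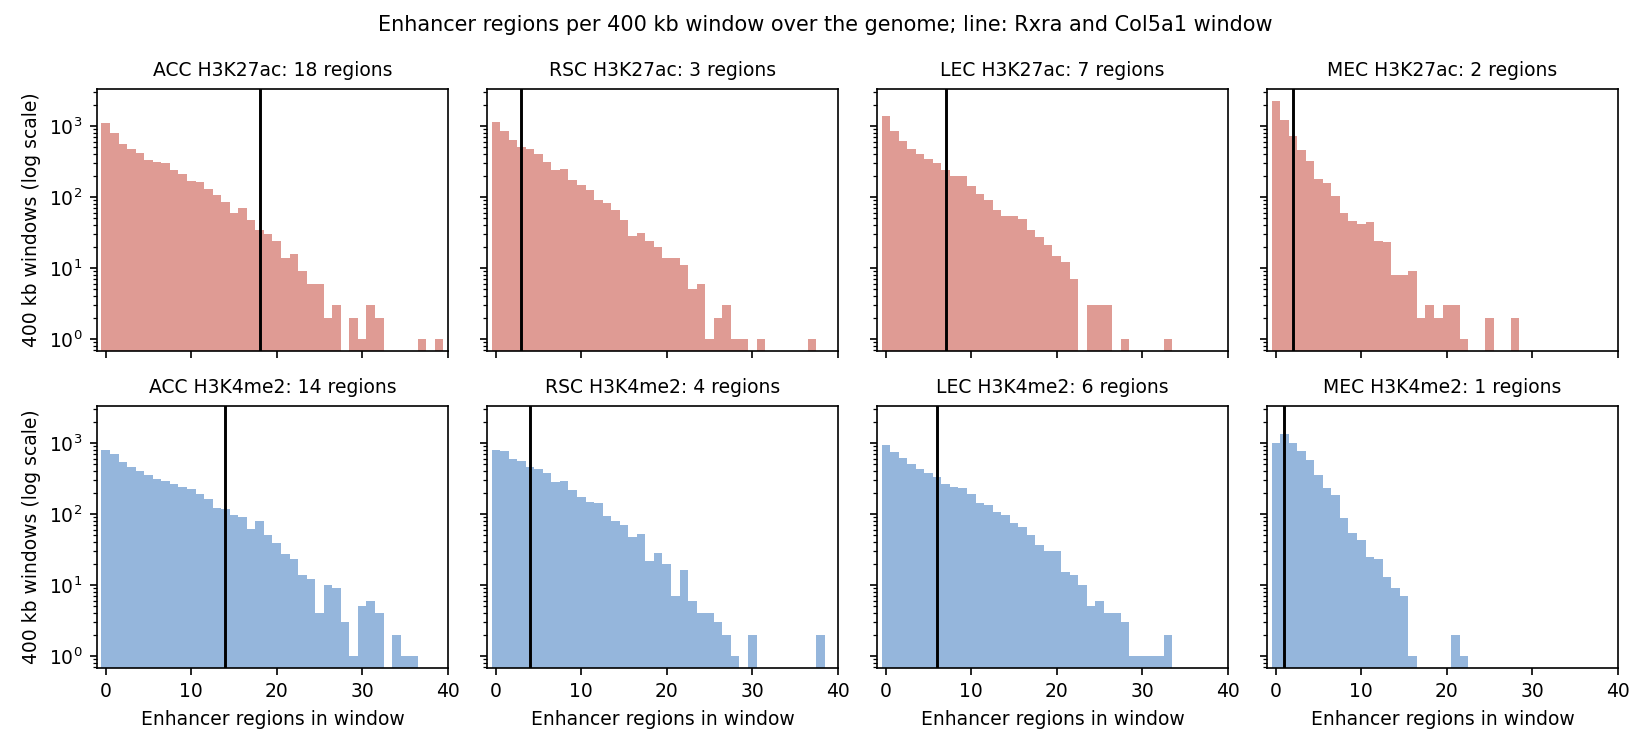
Number of 400 kb windows over the genome (log scale) by the number of enhancer regions they hold, for each subregion and mark, with a line at the Rxra and Col5a1 window. The line lies in the upper tail for ACC H3K27ac, at 18 regions, and inside the bulk for RSC, LEC and MEC.

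In the lists as deposited, more ACC enhancer regions were found in ACC alone than with any other subregion. Of the 18 ACC H3K27ac enhancer regions, 11 overlapped no H3K27ac enhancer region elsewhere, where 22.9% of the whole list did so. The number was 1 of 3 for RSC (20.4% of its list), 1 of 7 in LEC (20.2%) and 0 of 2 for MEC (19.96%). For H3K4me2, 8 of 14 ACC regions were ACC-only (20.8% of the list), with 0 of 4 for RSC (16.1%), 0 of 6 for LEC (16.2%) and 1 of 1 for MEC (32.6%). The ACC counts were above their list-wide shares in both marks. The other subregions had few regions in the window to overlap, for H3K27ac 7 in LEC, 3 in RSC and 2 in MEC. For H3K4me2 they had 6, 4 and 1 in the same order. The window was selected on such counts. The high ACC-only shares are thus tied to the ACC lead in counts and are no separate result. With lists of equal length (widest regions kept) 3 of 4 ACC H3K27ac regions and 2 of 7 ACC H3K4me2 regions were ACC-only. List-wide shares were not computed for the shortened lists, so whether these counts exceed them is not known. All 11 ACC-only H3K27ac regions also overlapped no region of the full lists elsewhere, where 21.0% of the ACC enhancer list did so.

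RSC, LEC and MEC had 1 such region each in 1 mark. The LEC-only H3K27ac region, chr2:27888651-27890825 near the end of the Col5a1 span, lay inside an ACC excluded region, chr2:27887851-27894725. The MEC-only H3K4me2 region, chr2:27613776-27614650, likewise overlapped excluded regions of ACC, RSC and LEC. Against the full lists neither was in 1 subregion only. The RSC-only H3K27ac region, chr2:27755476-27758325, overlapped no H3K27ac region of any full list elsewhere, as was true of the 11 ACC-only ones. It overlapped an H3K4me2 region of ACC, chr2:27754426-27757850, and of no other subregion, RSC included.

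Where ACC regions were shared, LEC was the usual partner. Of the 18 ACC H3K27ac enhancer regions, 5 overlapped enhancer regions of LEC alone, 1 those of MEC alone, 1 those of RSC and MEC, and none those of all 3. The 1 shared with RSC and MEC also overlapped an excluded region of LEC, so it met all 3 in the full lists. Over the whole ACC list 15.0% of regions overlapped all 3 and 22.1% overlapped RSC and LEC without MEC, a class with no region here. The RSC enhancer list overlapped 1 of 18 ACC regions in the window, where it overlapped 57.8% of the whole ACC list. The LEC enhancer list overlapped 5 of 18, against 55.0% of the whole ACC list. The LEC full list overlapped 6 of 18, against 57.4%. ACC had 18 regions in the window, against 3 in RSC and 7 in LEC, which bounds these overlaps.

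In H3K4me2 the RSC and LEC enhancer regions lay where ACC had them too. All 4 RSC and all 6 LEC enhancer regions overlapped an ACC one, where 71.4% of the RSC list and 72.0% of the LEC list did so. All 4 RSC regions also overlapped a LEC one (60.3% of the RSC list), so these counts are not separate. They are too small to set the window apart from the lists. The 1 MEC region overlapped no ACC enhancer region, and overlapped an excluded one.

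Merging all full-list regions of both marks wherever they overlapped gave 26 sites. ACC carried at least 1 mark at all 26, LEC at 15, RSC at 10 and MEC at 5. Sites were merged in the window only, so no genome-wide share stands beside the site counts. The full lists also differ in length. ACC has the longest, with 48266 H3K27ac and 54419 H3K4me2 regions, and MEC the shortest, with 22848 and 30064. H3K27ac of ACC was listed at 23 sites, of LEC at 13, of RSC at 7 and of MEC at 3. H3K4me2 of ACC was listed at 18, of LEC at 9, of RSC at 9 and of MEC at 4. H3K27ac was in 1 subregion at 11 sites, of which 10 were of ACC, and in all 4 at 2 sites. These 2 were the Rxra start and a site of 9825 bp in the Rxra span, chr2:27593976-27603800.

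That shared site shows how the 2 kinds of list divide one stretch. ACC had an excluded region at chr2:27594201-27598575 and an enhancer region at chr2:27599701-27603800. RSC and MEC had the same pair, with enhancer regions at chr2:27600551-27602700 and chr2:27601176-27602600. In LEC a single excluded region of 9500 bp, chr2:27593976-27603475, spanned both, so LEC has no enhancer region there in H3K27ac, although its H3K27ac covered the place. For H3K4me2 the LEC list had the division that ACC and RSC had.

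**Figure D4:**
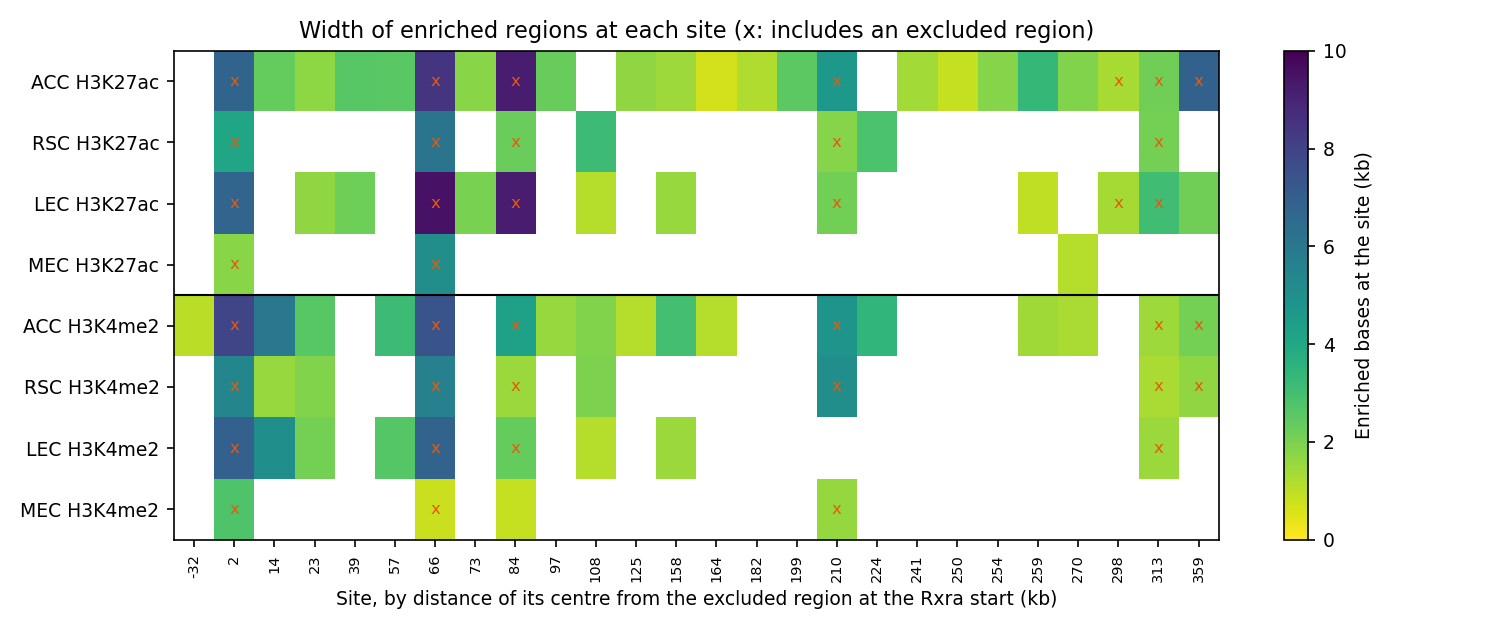
Enriched bases in kb at each of the 26 sites, ordered along the chromosome and labelled by distance in kb from the excluded region at the Rxra start, for each subregion and mark. White means no listed region and an x that an excluded region is included; ACC has a coloured cell in at least 1 mark at every site, and MEC at 5.

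Along the window, the second mark at the ACC-only H3K27ac regions differed by place, which rests on 3, 5 and 3 regions. In the Rxra span 3 of 7 ACC H3K27ac enhancer regions were ACC-only: chr2:27545826-27547100, chr2:27548226-27549325 and chr2:27588251-27590825. All 3 carried H3K4me2 of ACC and also of LEC, and the first of RSC as well. The first and second lay under the same H3K4me2 region of ACC, chr2:27543676-27549675, and the same one of LEC, chr2:27544701-27549700. They are therefore not separate cases for H3K4me2. Acetylation was thus listed in ACC alone at places where H3K4me2 was listed in several subregions. Such places also occur elsewhere in the list. Of all ACC-only H3K27ac regions, 44.7% carried H3K4me2 of ACC, and only 13.2% carried it of ACC and no other subregion.

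Between the genes 5 of 6 ACC regions were ACC-only. At chr2:27628876-27631200, chr2:27657301-27658975 and chr2:27696101-27696800, H3K4me2 was also listed in ACC and nowhere else, so both marks were ACC-only. At chr2:27713826-27715025 and chr2:27730201-27732700 no subregion had H3K4me2. In the Col5a1 span 3 of 5 ACC regions were ACC-only, at chr2:27773026-27774400, chr2:27782201-27783075 and chr2:27786151-27787950. None of these 3 carried H3K4me2 of any subregion. They lay close together, with centres 240.9 to 254.2 kb from the excluded region at the Rxra start.

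Counted together, 6 of the 11 ACC-only H3K27ac regions carried ACC H3K4me2, where 44.7% of all ACC-only regions did so. H3K4me2 of ACC and of no other subregion was at 3 of the 11 (13.2% of all ACC-only regions). No full-list H3K4me2 region of any subregion was at 5 of the 11 (41.4%). The first and the last of these counts were near their list-wide shares.

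Over all ACC H3K27ac enhancer regions of the window, 11 of 18 (61.1%) carried ACC H3K4me2, and 61.0% of the whole list did. It was 3 of 7 for LEC (60.5% of the list), 2 of 3 for RSC (53.7%) and 0 of 2 for MEC (34.3%). The share in ACC was level with its list. The regions are neighbours in the same list and not independent draws, so no interval is given for these shares. The other way round, 10 of 14 ACC H3K4me2 enhancer regions carried ACC H3K27ac enhancer regions, where 53.1% of the whole list did.

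A pair of places went against the ACC lead. At chr2:27639526-27642675, between the genes, H3K27ac enhancer regions were listed in RSC, over 3150 bp, and in LEC, over 1100 bp, and not in ACC or MEC. H3K4me2 was nevertheless listed there in ACC, over 1875 bp, as well as in RSC and LEC. The RSC-only H3K27ac region in the Col5a1 span, described above, was the other. At both, ACC carried H3K4me2 without H3K27ac.

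MEC had 2 H3K27ac enhancer regions in the window, and both overlapped ACC ones. The first lay in the shared site of the Rxra span. The second, chr2:27801901-27803000 in the Col5a1 span, overlapped the ACC region chr2:27802001-27803875 and none of RSC or LEC. H3K4me2 was listed there in ACC, at chr2:27802301-27803575, and not in MEC. The MEC H3K4me2 list rests on 1 library per the labels, and the MEC lists were the shortest of both marks.

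The window's edges were set by position. The lowest member was an ACC-only H3K4me2 region that crossed the lower edge, chr2:27499901-27500925. The first H3K27ac region above the upper edge was an enhancer region in all 4 subregions, at chr2:27918476-27919575 for ACC, chr2:27920651-27925925 for RSC, chr2:27916251-27926200 for LEC and chr2:27921701-27924950 for MEC. These are the nearest region of each list, and no single stretch is common to all 4. Below the lower edge the nearest H3K27ac regions were 44.0 kb away in ACC, 8.25 kb in LEC, and 70.1 kb in RSC and MEC.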

How the data were processed

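Per the labels, chromatin was prepared from snap-frozen tissue dissected from 500 µm sections, and 23 samples were described. Per the submitters' processing notes, Bowtie 1.1.1 and bedtools 2.19.0 were used with build mm9; the peak caller, its threshold and how libraries were combined are not stated in the sources used here. Of 17 deposited lists 16 were used, the other repeating one of them. The deposited score was the width of each region in bp wherever given (0 exceptions), so it gave no enrichment. No depth is known for any list. Regions of one list never overlapped each other, all positions were multiples of 25 bp, and every enhancer region was in its full list.

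Overlaps were computed with Python 3.11.15 and numpy 2.4.6. A region was called in 1 subregion only when it overlapped none of the same mark and kind of list in the other 3 by 1 bp. The step, tested on simulated data, recovered 1034 of 1034 planted regions. Members fall to Rxra, Col5a1 or between by their midpoint. The window and its members were chosen with earlier results of these data known. Regions were named by rule: excluded regions at gene starts (within 20 kb), all H3K27ac enhancer regions of 1 subregion only, sites with H3K27ac in all 4, and the widest region of each list; other regions were named after their values were seen. Coordinates are 1-based, in mm9, except the promoters.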

Additional observations from a re-analysis of the deposited data

How the results depend on the processing

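Of 94 values recomputed under other settings, 72 stayed within 1.5 times the reported value, and 22 moved. With equal list lengths (widest regions kept) H3K27ac regions numbered 4 in ACC and 0 in LEC, ACC-only ones 3, RSC-only 2, LEC-only 0 and MEC-only 1; H3K4me2 regions in ACC were 7, and ACC-only ones 2. With overlap of at least 50% required, RSC-only H3K27ac regions were 2. Against full lists LEC-only H3K27ac and MEC-only H3K4me2 regions were 0. With a minimum of 1000 bp MEC had 0 H3K4me2 regions, 0 of them MEC-only, covering 0 kb. Full H3K27ac lists covered 69.7 kb (ACC), 22.5 kb (RSC), 43.6 kb (LEC) and 7.92 kb (MEC), and full H3K4me2 lists 55.4 kb, 26.0 kb, 29.9 kb and 6.03 kb in the same order, by construction, since they hold the excluded regions. The cause of the other moves was not tested. With the MEC lists left out, a setting chosen after seeing the data, ACC-only H3K27ac regions were 12. No paired analysis was possible because the lists hold no value per library; for the same reason no replicate could be left out. Depth is unknown, so a region missing from a list is not shown to be absent.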
